A study of Mus musculus with 6 samples.

Results

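Gm20100, Gm43150, 6720427I07Rik and Gm45091 are 4 long non-coding RNAs (lncRNAs) of the mouse heart, out of 9413 lncRNAs and 8969 protein-coding genes measured. They were chosen by name, from earlier results of these data, as lncRNAs with enough reads whose values in the I/R hearts did not overlap those in the Sham hearts. Their difference between the groups is therefore described without a test, and tests are given for the genes that lie beside them. The hearts, from male mice, were isolated and perfused in a Langendorff system, in which a heart goes on beating without the body. The 3 I/R hearts (ischaemia, then reperfusion) were arrested with cardioplegia for 30 min and reperfused for 1 h. The 3 Sham hearts were perfused without arrest, so they are perfused hearts too and not fresh tissue. The sources used here do not give strain or age.

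An lncRNA is a transcript with no recognised protein product. Some are processed into microRNAs, some run antisense through a coding gene or across its promoter, and some lie alone. For most of them no function is established, so the genes beside an lncRNA are often the first thing asked about it. Where transcripts on opposite strands overlap, reads from the shared bases need strand to be told apart. The sources used here do not state the strand setting, so the values of such pairs are uncertain.

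Values are FPKM, reads scaled by transcript length and by the total of the library. lncRNAs and protein-coding genes were scaled by different totals, so FPKM are compared only within a class. The totals were 2213168 to 2597795 reads in I/R hearts and 2025331 to 2792592 in Sham hearts for lncRNAs. For protein-coding transcripts they were 7690040 to 8896834 reads in I/R hearts and 7233171 to 9902397 in Sham hearts. The transcripts listed hold 99.8 to 99.9% of the lncRNA reads. Of the protein-coding reads they hold only 38.1 to 39.9% in I/R hearts and 36.8 to 38.3% in Sham hearts. Of 15 markers of ventricular cardiomyocytes 13 were measured, with a summed level of 11652 to 12405 FPKM in I/R hearts and 11766 to 12669 in Sham hearts. Summed levels also overlapped for atrial cardiomyocytes, endothelial cells, smooth muscle cells with pericytes, neutrophils, lymphocytes, blood, adipocytes, and Schwann cells with neurons. Among the 5041 protein-coding genes tested, the groups did not overlap for 13.9%. The summed levels of the remaining 3 marker lists did not overlap between the groups. They were those of fibroblasts (492 to 537 FPKM in I/R hearts, 376 to 463 in Sham hearts, 11 of 12 markers), macrophages (1144 to 1238 and 921 to 1104, 5 of 10) and epicardium (7.18 to 11.5 and 4.98 to 5.69, 4 of 5). Only 1 of the 4 epicardium markers averaged at least 0.5 FPKM. A sum follows its most abundant markers, and the 13.9% is for single genes. More cells of a type and more RNA per cell cannot be told apart in whole hearts. The part of these markers in the results below was not tested. With limma and Benjamini-Hochberg adjustment over 12114 genes, 0 had an adjusted p under 0.05 (0.00%), with 1023 at an unadjusted p under 0.05 (8.44%). On the recovered reads limma voom also called 0 genes.

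All 4 lncRNAs separated the groups, 3 of them higher and 1 lower in I/R hearts, which is what they were chosen for. Among the 7073 lncRNAs tested the groups did not overlap for 13.5%. Among the 3243 lncRNAs with at least the 41.3 reads per heart of Gm45091, the least covered of the 4, the groups did not overlap for 16.0%, with 245 higher (7.55%) and 275 lower (8.48%) in I/R hearts.

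**Figure D1:**
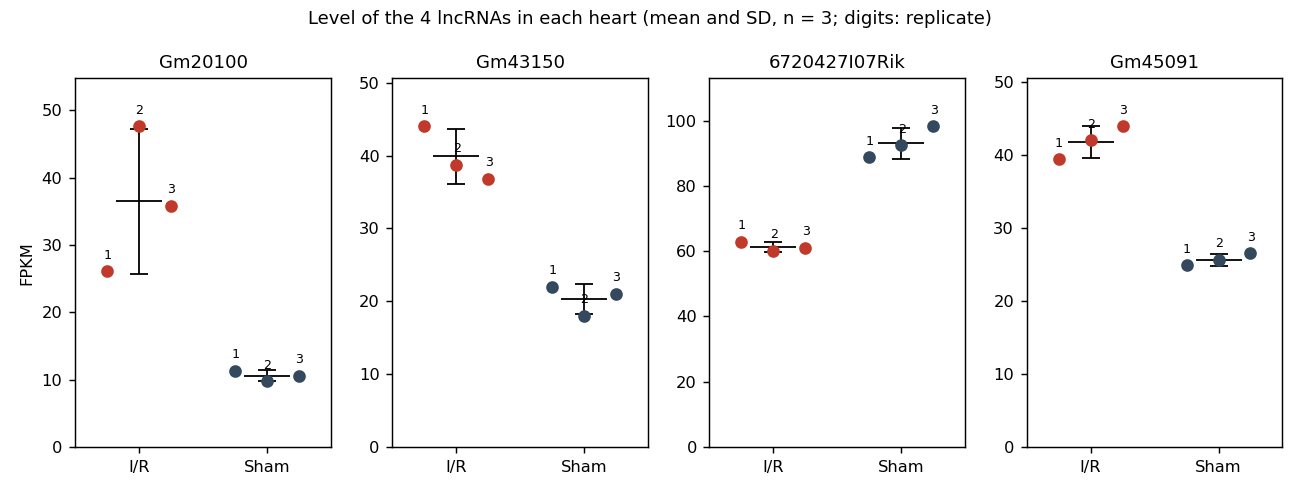
FPKM of each lncRNA in the 3 I/R hearts (left of each panel) and the 3 Sham hearts (right), with points for hearts, digits for replicate numbers and bars for mean and SD. The I/R hearts lie above all Sham hearts for Gm20100, Gm43150 and Gm45091 and below them for 6720427I07Rik.

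Gm20100 (ENSMUSG00000110245, GRCm38 chr8:11457471-11459742, minus strand) was at 26.1, 47.6 and 35.8 FPKM in I/R replicates 1, 2 and 3, against 11.3, 9.75 and 10.6 FPKM in Sham replicates 1, 2 and 3. The lowest I/R heart, replicate 1, was 14.7 FPKM above the highest Sham heart. The means were 36.5 ± 10.8 FPKM in I/R hearts and 10.6 ± 0.803 in Sham hearts (SD, n = 3 each), 3.45-fold higher in I/R. Behind these values were 131, 281 and 191 reads in I/R hearts and 72, 60 and 49 in Sham hearts. The ratio of reads per total was 3.50, with a 95% interval of 2.96 to 4.16 (exact binomial, counting error only). This interval leaves out the spread between hearts, which in I/R hearts was 29.6% of the mean, against 7.05% from counting. Here and below such intervals show depth only and are no test, since the lncRNAs were chosen for this contrast. The difference was 1.66 ± 0.22 in log2(FPKM + 1) (SE), 1st by size among those 245 lncRNAs.

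The length behind these FPKM was 2272 bases, the same as the span, as for a gene of 1 exon. The same held for 2896 of the 8615 lncRNAs that have a span. RefSeq places the whole of Gm20100 inside Rab20 (chr8:11453390-11478640), on the same strand. Rab20 encodes a small GTPase of membrane traffic, and it was not analysed here, so the reads of Gm20100 were not compared with those of its host. The annotation used here gives no exons, so whether Gm20100 lies in an intron or an exon of Rab20 was not determined. RefSeq has the collagen IV gene Col4a2, not analysed here, 8.18 kb downstream.

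Of the protein-coding genes in the table, Ing1, which encodes a chromatin-binding tumour suppressor, was nearest at 95.8 kb. It was at 0.396, 0.918 and 1.62 FPKM in I/R hearts, against 0.307, 0.371 and 0.0701 FPKM in Sham hearts. The groups did not overlap, but only 47 reads in I/R hearts and 14 in Sham hearts lay behind these values, and the difference of 0.62 ± 0.28 was not past the threshold (limma, unadjusted p = 0.0612, adjusted p = 0.602). The difference was 0.40 without I/R replicate 3. In limma voom on the recovered reads it was 1.78 on the log2 scale. On the other side Col4a1, a chain of collagen IV in basement membranes, lay 145 kb away and differed by 0.21 ± 0.32 (adjusted p = 0.905, limma). It rested on 31 reads in I/R hearts and 27 in Sham hearts, and ranged from 0.02 without Sham replicate 2 to 0.49 without I/R replicate 3.

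The nearest lncRNAs within 50 kb that averaged 5 FPKM or more were chosen after their values were seen. E230013L22Rik, 18.2 kb away on the opposite strand, was at 146, 217 and 201 FPKM in I/R hearts and 108, 178 and 118 in Sham hearts. The groups overlapped through Sham replicate 2, and the difference of 0.49 ± 0.23 had an adjusted p of 0.612 (limma). Gm15419, 39.6 kb away, differed by 0.14 ± 0.27 (limma, adjusted p = 0.929). It turned to −0.08 without I/R replicate 1 and to −0.11 without Sham replicate 3.

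Gm43150 (ENSMUSG00000106777, GRCm38 chr5:149425653-149428962, minus strand) was at 44.0, 38.7 and 36.8 FPKM in I/R hearts, against 22.0, 18.0 and 21.0 FPKM in Sham hearts. The 3 I/R hearts were at least 14.8 FPKM above the Sham hearts, with replicate 1 highest in each group. The means were 39.9 ± 3.76 FPKM in I/R hearts and 20.3 ± 2.06 in Sham hearts, 1.96-fold higher in I/R (0.94 ± 0.14 on the log2 scale). The reads were few, 62, 64 and 55 in I/R hearts and 39, 31 and 27 in Sham hearts. The ratio of reads was 1.96, with a 95% interval of 1.52 to 2.54 (counting error only). Its counted length was 636 bases of a span of 3310. It was 13th by size among the 245.

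Gm43150 lies wholly inside Medag and inside the lncRNA Gm20488, both on the opposite strand. Medag (ENSMUSG00000029659, chr5:149411749-149431723) is known as a gene of adipocyte differentiation in mice. It was at 1.80, 1.81 and 1.87 FPKM in I/R hearts, against 0.908, 1.24 and 1.09 FPKM in Sham hearts. All I/R hearts lay above all Sham hearts, as for 8.83% of the 5041 protein-coding genes tested. The difference was 0.45 ± 0.18, at an unadjusted p of 0.0467 and an adjusted p of 0.587 (limma), so it was not past the threshold. In this direction 3.43% of protein-coding genes were at an unadjusted p under 0.05. The reads of Medag were 119 in I/R hearts and 77 in Sham hearts.

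Gm20488 (ENSMUSG00000107314, chr5:149368476-149430682) runs along the strand of Medag. In RefSeq the span of Medag (chr5:149367641-149431723) is longer and holds the whole of Gm20488. Whether they are separate transcripts was not determined. Gm20488 had many more reads, 2364 in I/R hearts and 1762 in Sham hearts. It was at 131, 91.4 and 111 FPKM in I/R hearts, against 77.9, 79.1 and 77.1 in Sham hearts. The groups did not overlap, as for 5.87% of lncRNAs in this direction, and the difference of 0.49 ± 0.14 was not past the threshold (limma, unadjusted p = 0.0108, adjusted p = 0.457). In this direction 4.81% of lncRNAs were at an unadjusted p under 0.05. Gm43151, an lncRNA 0.553 kb from Gm43150 on its strand and chosen after its values were seen, was at 33.7, 31.1 and 40.8 FPKM in I/R hearts, against 11.4, 21.3 and 28.6 in Sham hearts. It differed by 0.83 ± 0.31 (limma, adjusted p = 0.547), and by 0.48 without Sham replicate 1. These 4 transcripts were each higher in every I/R heart than in any Sham heart, and since they overlap or adjoin, their reads may be shared. Gm43150 and Gm43151 were chosen with their values known. Over all genes tested, 5.87% of lncRNAs and 8.83% of protein-coding genes separated in this direction.

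The protein-coding genes on either side of Medag averaged less than 0.5 FPKM and were not tested. Alox5ap, whose protein is needed to make leukotrienes, had 3 reads in I/R hearts and 4 in Sham hearts, and the chaperone gene Hsph1 had 27 and 16. Markers of adipocytes, of which 3 of 5 were measured and none was at 0 in all hearts, had a summed level of 6.70 to 13.1 FPKM in I/R hearts and 6.23 to 9.46 in Sham hearts. These ranges overlapped.

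6720427I07Rik (ENSMUSG00000097375, GRCm38 chr13:48535523-48537822, minus strand) is the one of the 4 that was lower in I/R hearts. Its span holds the gene of the microRNA let-7d, and the genes of let-7f-1 and let-7a-1 lie beside its start, 6 and 356 bases away, all on its strand in RefSeq. The let-7 microRNAs are small RNAs that repress mRNAs carrying matches to their seed (bases 2 to 8), and this cluster is known to be cut from a shared primary transcript. The mature sequences are shown because they are what this locus is known to yield. The capitals mark the seed, which is GAGGUAG in each.
mmu-let-7d-5p: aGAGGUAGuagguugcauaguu
mmu-let-7f-5p: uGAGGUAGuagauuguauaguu
mmu-let-7a-5p: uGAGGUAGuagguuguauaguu
From let-7a, let-7d differs at 2 of 22 bases and let-7f at 1, all outside the seed. Whether let-7d is cut from the RNA counted as 6720427I07Rik was not tested. The let-7d hairpin, which lies within the listed span of 6720427I07Rik (chr13:48536012-48536114, minus strand, 103 bases), is shown with the mature 5′ arm in capitals. These sequences are from RefSeq on GRCm38.
Mirlet7d: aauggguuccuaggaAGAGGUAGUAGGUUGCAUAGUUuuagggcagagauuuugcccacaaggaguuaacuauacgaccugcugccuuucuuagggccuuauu

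6720427I07Rik was at 62.8, 60.0 and 61.1 FPKM in I/R hearts, against 88.7, 92.4 and 98.2 FPKM in Sham hearts. The highest I/R heart was 25.9 FPKM below the lowest Sham heart. The means were 61.3 ± 1.43 FPKM in I/R hearts and 93.1 ± 4.76 in Sham hearts, a ratio of 0.658 (−0.59 ± 0.09 on the log2 scale). It was the best covered of the 4, with 778, 872 and 804 reads in I/R hearts and 1387, 1402 and 1113 in Sham hearts, and 195th by reads among all lncRNAs. The ratio of reads was 0.661, with a 95% interval of 0.628 to 0.695 (counting error only). This interval leaves out the spread between hearts, which in Sham hearts was 5.11% of the mean, against 2.77% from counting. Of the 275 lncRNAs of at least the depth of Gm45091 that were lower in all I/R hearts, it was 66th by size of change. Mature let-7 was not analysed here.

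The length behind its FPKM was 5598 bases, more than the 2300 bases of the span listed. This was so for 55 of 8615 lncRNAs (0.638%). The model that was counted therefore held bases beyond the listed coordinates, and the sources used here do not say which. Whether it held the let-7f-1 and let-7a-1 genes was not determined.

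Gm37238 (ENSMUSG00000103373, chr13:48542644-48545033), the nearest lncRNA of at least 5 FPKM, lies 4.82 kb before the start of 6720427I07Rik on the same strand and was chosen after its values were seen. It was at 87.0, 94.5 and 90.6 FPKM in I/R hearts, against 127, 118 and 117 FPKM in Sham hearts. Here too all I/R hearts lay below all Sham hearts, as for 7.61% of lncRNAs tested. The difference of −0.41 ± 0.09 had an unadjusted p of 0.0029 and an adjusted p of 0.386 (limma), so it was not past the threshold. Among lncRNAs 6.02% were lower at an unadjusted p under 0.05. The reads were 1556 in I/R hearts and 2180 in Sham hearts. Whether the counted model of 6720427I07Rik and Gm37238 share bases was not tested.

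The nearest protein-coding genes of the table were below the filter. A830005F24Rik, 20.7 kb away, had 1 read in I/R hearts and 3 in Sham hearts, and the phosphatase gene Ptpdc1, 40.0 kb away, had 10 and 17. RefSeq has the zinc finger gene Zfp169, not analysed here, at 22.0 kb.

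**Figure D2:**
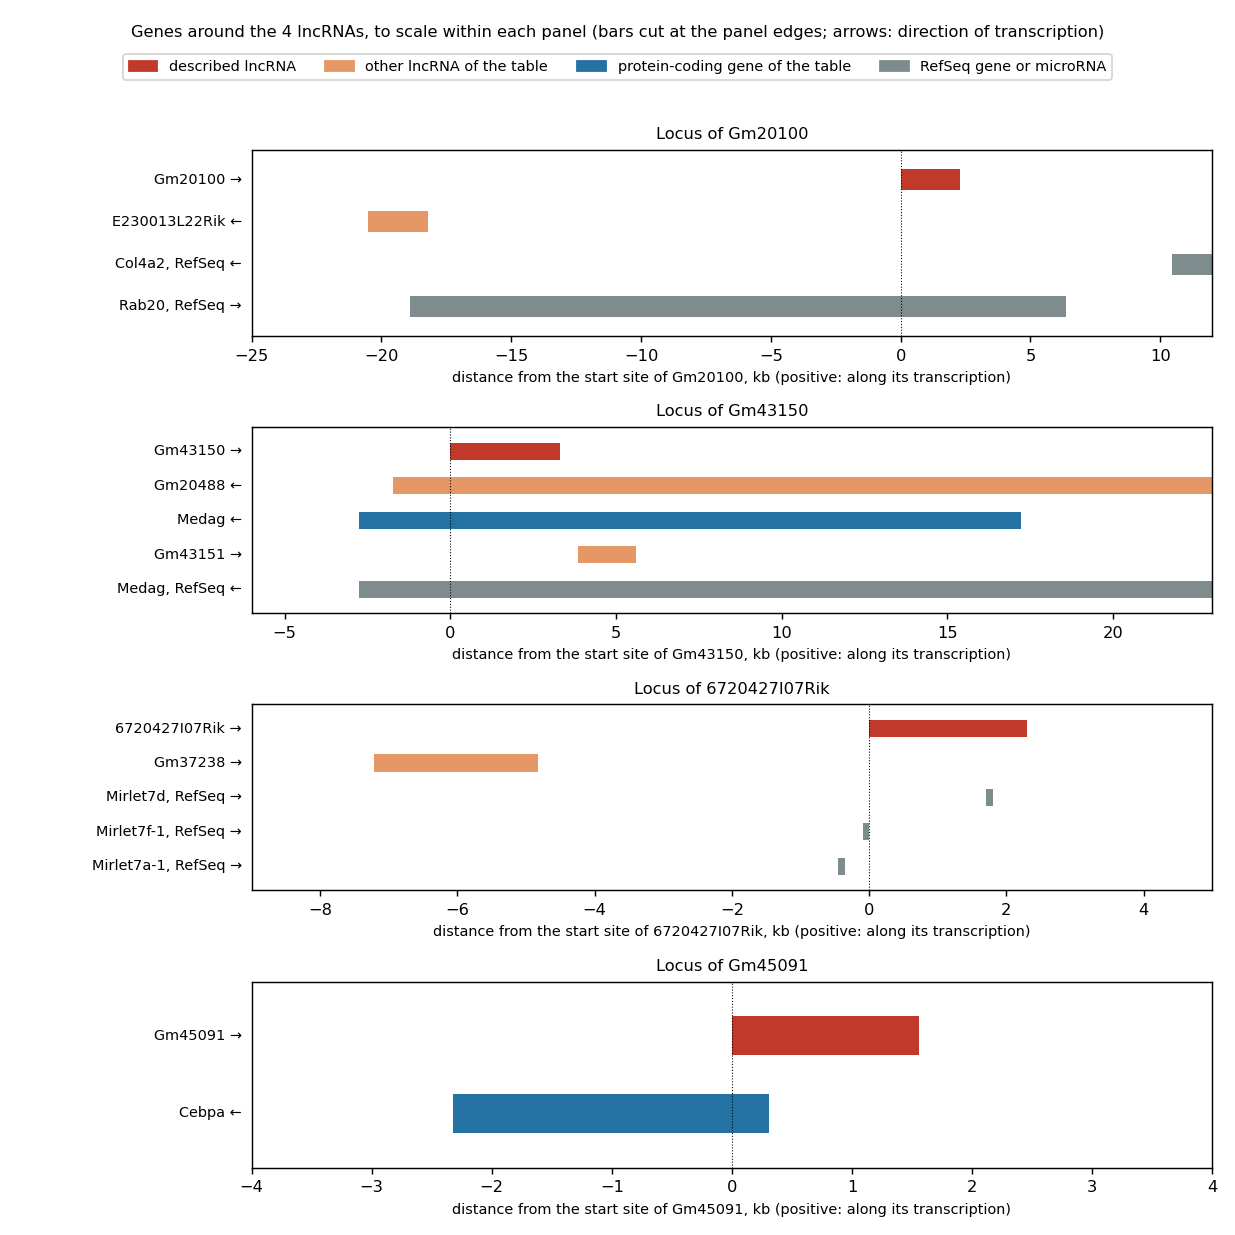
Positions of the 4 lncRNAs (red), other lncRNAs (orange) and protein-coding genes (blue) of the table and RefSeq genes (grey), as distance in kb from the start site of each lncRNA, positive along its transcription. Gm20100 lies inside Rab20, Gm43150 inside Medag, 6720427I07Rik holds let-7d, and Gm45091 overlaps the start of Cebpa.

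Gm45091 (ENSMUSG00000108624, GRCm38 chr7:35118044-35119605, minus strand) overlaps the start of Cebpa by 313 bases, in the opposite direction. It was at 39.4, 42.0 and 43.9 FPKM in I/R hearts, against 24.9, 25.6 and 26.5 FPKM in Sham hearts. Every I/R heart was above every Sham heart, with a gap of 13.0 FPKM. The means were 41.8 ± 2.23 FPKM in I/R hearts and 25.6 ± 0.792 in Sham hearts, 1.63-fold higher in I/R (0.68 ± 0.11 on the log2 scale). It had the fewest reads of the 4, with 44, 55 and 52 in I/R hearts and 35, 35 and 27 in Sham hearts. The ratio of reads was 1.64, with a 95% interval of 1.26 to 2.13 (counting error only). Its counted length was 504 bases of a span of 1562. It was 48th by size among the 245.

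Cebpa (ENSMUSG00000034957, chr7:35119293-35121928) encodes C/EBP-alpha, a transcription factor of adipocytes, hepatocytes and myeloid cells. It was at 1.98, 2.14 and 1.61 FPKM in I/R hearts, against 1.08, 0.750 and 0.790 FPKM in Sham hearts. Every I/R heart was above every Sham heart, as for 8.83% of the 5041 protein-coding genes tested. The means were 1.91 ± 0.275 FPKM in I/R hearts and 0.872 ± 0.178 in Sham hearts, with 123 and 62 reads. The difference was 0.64 ± 0.20, at an unadjusted p of 0.0146 and an adjusted p of 0.471 (limma), not past the threshold. In limma voom on the recovered reads it was 1.11 on the log2 scale. Of protein-coding genes, 3.43% were higher in I/R hearts at an unadjusted p under 0.05 (limma). Cebpa shares 313 bases with Gm45091, which was chosen for this contrast, and the strand setting is not stated, so their reads may be shared. Summed markers of macrophages, which are myeloid, were higher in all I/R hearts as given above. Those of neutrophils, also myeloid, overlapped between the groups (0.564 to 1.73 FPKM in I/R hearts, 0.0 to 1.02 in Sham hearts). Those of adipocytes overlapped too. The part of these cells in the level of Cebpa was not tested.

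The promoter window of Cebpa in RefSeq, from 250 bases before its start to 50 after it (chr7:35119043-35119342, plus strand, 300 bases), lies wholly inside Gm45091. It is shown because Gm45091 runs through it, with matches to 12 motifs searched on both strands in capitals.
Cebpa promoter window: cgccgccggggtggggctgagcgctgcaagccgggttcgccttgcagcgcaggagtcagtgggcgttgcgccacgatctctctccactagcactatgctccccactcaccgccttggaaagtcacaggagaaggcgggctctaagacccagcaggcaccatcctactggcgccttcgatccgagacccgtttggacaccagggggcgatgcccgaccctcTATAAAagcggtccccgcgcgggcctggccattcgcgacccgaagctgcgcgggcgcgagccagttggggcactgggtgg
Its 1 match is a TATA motif (TATAAA) that begins 30 bases before the start, and 13.6% of 32851 promoter windows hold that motif. The other motifs had no match in these letters. They were TGANTCA of AP-1, TGACGTCA of CRE-binding factors, CACGTG (the E-box), ACGTG of the hypoxia response, which the E-box contains, GGGCGG of SP1, TTCNNNGAA of STAT factors, CATTCC (MCAT) of TEAD factors, AGATAA of factors of the GATA family, and, by name, MEF2, CArG and NF-kB.

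The nearest protein-coding genes of the table on either side of Gm45091 and Cebpa were below the filter. Cebpg, a relative of Cebpa 61.5 kb away, had 29 reads in I/R hearts and 29 in Sham hearts, and Rhpn2, 215 kb away, had 17 and 13.

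**Figure D3:**
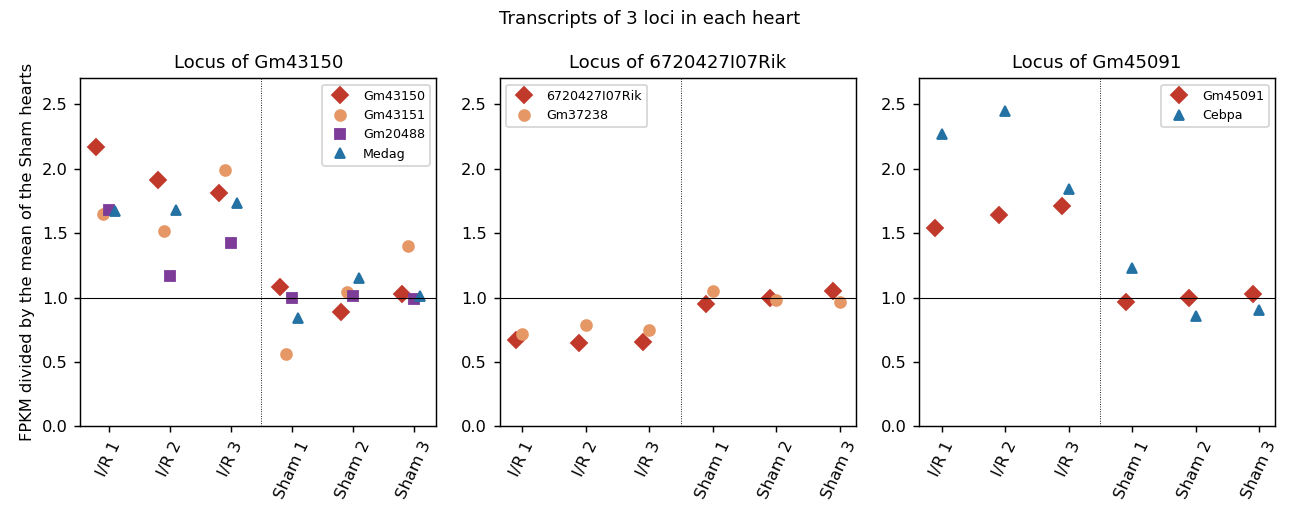
FPKM of each transcript divided by its mean in the Sham hearts, for the 3 I/R hearts (left) and the 3 Sham hearts (right) at the loci of Gm43150, 6720427I07Rik and Gm45091. In all 3 panels every I/R heart is on one side of every Sham heart for each transcript shown. Gm43151 and Gm37238 were chosen after their values were seen, and neighbours below the filter, whose groups overlapped, are not drawn. The locus of Gm20100 is not drawn either, where the groups overlapped for Col4a1, Gm15419 and E230013L22Rik but not for Ing1. Over all genes tested, the groups did not overlap for 13.5% of lncRNAs and 13.9% of protein-coding genes.

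Over the 4 loci, 20 protein-coding genes of the table lay within 500 kb, and 10 of them passed the filter of 0.5 FPKM. None had an adjusted p under 0.05 in limma (0.00% of 5041 protein-coding genes did). Cebpa and Medag, the overlapping genes, were at an unadjusted p under 0.05, both higher, so 2 of 10, against 5.10% of all protein-coding genes tested (3.43% higher and 1.67% lower). The groups did not overlap for 4 of the 10, with I/R above for 4 and below for 0, against 8.83% above and 5.12% below among all protein-coding genes tested. They were Medag, Cebpa, Ing1 and Nudt19, the last named after its values were seen. Ing1 passed the filter only through its I/R hearts (mean 0.979 FPKM, against 0.249 in Sham hearts). Its place in the counts and the median given here is therefore not independent of its direction. Of the 10, 9 were higher in I/R hearts, against 54.9% of all protein-coding genes tested, with a median of 0.33 against 0.02 over all. The lowest was −0.19 and the highest was Cebpa at 0.64. The median was 0.47 without Sham replicate 2. Within 500 kb of 6720427I07Rik 1 protein-coding gene was tested, and it was higher in I/R hearts (0.44), opposite to that lncRNA. These 10 genes lie at 4 places of the genome and are too few for more than this description.

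**Figure D4:**
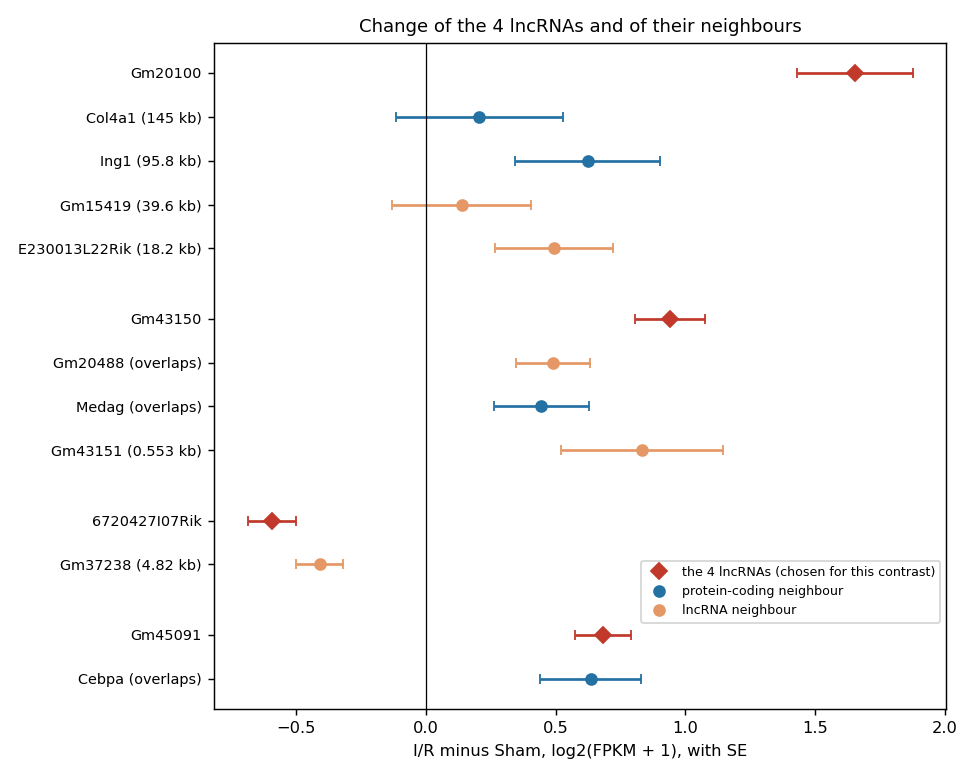
Difference of I/R minus Sham hearts in log2(FPKM + 1) with its SE from limma for the 4 lncRNAs (red diamonds), protein-coding neighbours (blue) and lncRNA neighbours (orange), grouped by locus, with the distance to the lncRNA in brackets. The neighbours that overlap Gm43150 and Gm45091 lie on the same side of 0 as these lncRNAs. Gm37238, chosen after its values were seen, lies below 0 with 6720427I07Rik. The 1 tested protein-coding gene within 500 kb of 6720427I07Rik, at 0.44, is not drawn.

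The spread within groups belongs to the values the 4 lncRNAs were chosen by, since groups that do not overlap favour a small one, and it is given as a description. The SD of log2(FPKM + 1) within groups was 0.0564 for 6720427I07Rik, 0.0614 for Gm45091, 0.137 for Gm43150 and 0.307 for Gm20100, against a median of 0.227 over the 3243 lncRNAs. Set against the error of counting alone, the spread between hearts was smaller in 6 of 8 group values. For Gm45091 the SD was 5.34% of the mean in I/R hearts and 3.09% in Sham hearts, where counting gives 14.1% and 17.6%. For Gm43150 it was 9.43% and 10.2%, against 12.9% and 17.6% from counting. These spreads lie below the counting error, so they do not show how much the hearts differed. For Gm20100 the spread of 29.6% in I/R hearts was above the 7.05% of counting, and for 6720427I07Rik 5.11% in Sham hearts was above 2.77%.

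Across the 6 deviations from the group means, Pearson's r between pairs of the 4 lncRNAs ran from −0.658 (Gm43150 with Gm45091) to 0.468 (Gm20100 with Gm45091). With 6 hearts from 2 groups these are descriptions.

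**Figure D5:**
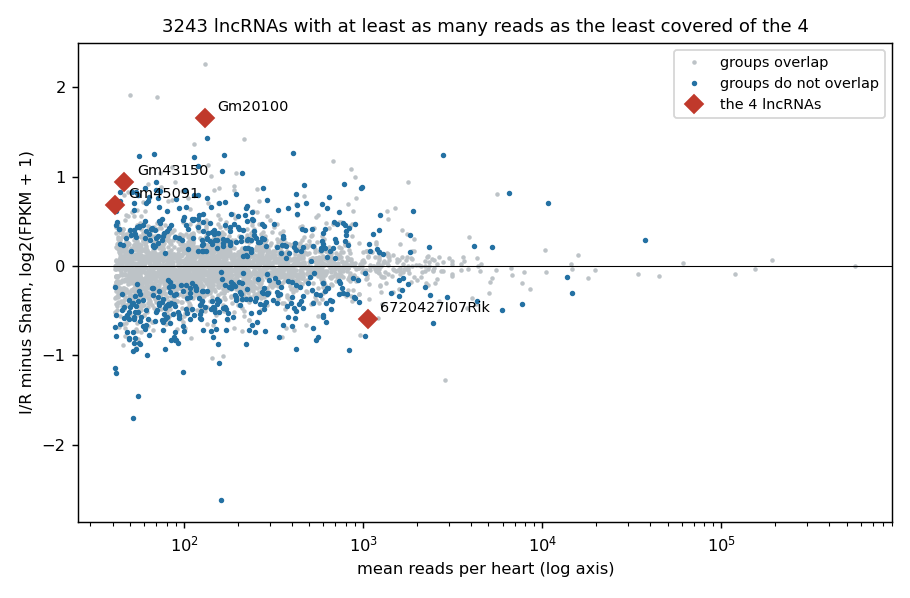
Difference of I/R minus Sham hearts in log2(FPKM + 1) against mean reads per heart (log axis) for 3243 lncRNAs, with those whose groups do not overlap in blue and the 4 lncRNAs as red diamonds. Gm43150 and Gm45091 lie at the left edge, with 46.3 and 41.3 reads per heart, and 6720427I07Rik at 1059.

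Among 2119 protein-coding genes that averaged 5 FPKM or more, those most like each lncRNA over the 6 hearts were found by Pearson's r of log2(FPKM + 1). They share the contrast for which the lncRNAs were chosen, so r of the deviations from the group means is given beside it. The ranking over the 6 hearts used these deviations too, so a high r of deviations comes in part from the ranking. For Gm20100 they were Rps12-ps3 (r = 0.988, deviations 0.856), a pseudogene whose reads may belong to Rps12, Bcl2l11 (0.988 and 0.875), which encodes the pro-apoptotic protein BIM, and Lacc1 (0.986 and 0.850). For Gm43150 they were Cdyl2 (0.987 and 0.871), Lmtk2 (0.981 and 0.798) and Lman1 (0.976 and 0.865), the last a receptor for glycoproteins leaving the endoplasmic reticulum. For 6720427I07Rik they were Hrct1 (0.971 and 0.147), Timm17a (0.965 and −0.698), a subunit of mitochondrial protein import, and Pcp4l1 (0.959 and 0.725). For Gm45091 they were Mrps30 (0.991 and 0.718), of the mitochondrial ribosome, Trappc10 (0.986 and 0.833) and Arl6ip5 (0.981 and −0.346). Among 4505 lncRNAs the most alike were Gm44876 for Gm20100 (0.993 and 0.961), Gm42670 for Gm43150 (0.970 and 0.700), Gm47232 for 6720427I07Rik (0.992 and 0.805) and 4930478L05Rik for Gm45091 (0.982 and 0.505). Gm47232 had only 23 reads in I/R hearts and 41 in Sham hearts. All of these r are descriptions over 6 hearts.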

How the data were processed

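Poly(A) RNA of 6 hearts was sequenced, per the labels' protocols. Of software, the submitters' processing notes list HTSeq 0.10.0, HISAT2 2.1.0, fastp 0.23.0 and bcl2fastq 2.19.1.403; of builds they list mm10, GRCm38 and GRCm39. No role is stated for any. The deposited values are the authors' FPKM, 1 row a transcript. Of 21198 rows 40 repeats were dropped, and rows of a protein-coding gene were added up. Positions come from the table: 97.1% of 8611 genes overlapped the RefSeq GRCm38 span of their symbol by at least 50%, so that build is named.

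Whole reads and lengths were recovered from the FPKM (tolerance 0.001) for 9413 of 9413 lncRNA and 11745 of 11745 mRNA rows, taking the commonest ratio of length to span as that of single-exon genes. Genes averaging at least 0.5 FPKM were fitted as log2(FPKM + 1) with limma 3.58.1 (R 4.3.3) on group alone, with a variance trend, two-sided, adjusted over all genes. The pseudocount of 1 understates changes of genes near 1 FPKM. The procedure was tested on simulated data. The labels call the hearts biological replicates.

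The 4 lncRNAs, the marker lists and the naming rule were chosen with earlier results of these data known. The rule took overlapping genes, the nearest protein-coding gene on each side, protein-coding genes within 500 kb at an unadjusted p under 0.05, and the 3 protein-coding genes and 1 lncRNA most like each.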

Additional observations from a re-analysis of the deposited data

How the results depend on the processing

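Each result was recomputed with changed pseudocount, low-value filter, scaling, variance model or heart weights, by class or transcript row, with limma voom on recovered reads, with a replicate block and with each heart left out. Under each of these 18 settings 0 genes passed an adjusted p of 0.05. The count at an unadjusted p under 0.05, 1023, was 640 with a filter at 5 FPKM, which tests fewer genes, and ranged from 808 to 1191 with 1 heart left out. The direction of the 4 lncRNAs was fixed by choosing them for groups that do not overlap, so only their sizes are given. Over settings with all hearts Gm20100 ranged from 1.66 to 1.75, Gm43150 from 0.93 to 0.98, 6720427I07Rik from −0.60 to −0.56 and Gm45091 from 0.68 to 0.72. With 1 heart left out they ranged from 1.45 to 1.87, 0.86 to 1.00, −0.63 to −0.56 and 0.65 to 0.72. Cebpa was at an unadjusted p under 0.05 in 17 of 17 settings that measured it and Medag in 8 of 17. The median of the neighbouring protein-coding genes, 0.33, ranged from 0.296 to 0.471 with 1 heart left out. Gm15419, at 0.14, was at −0.0810 without I/R replicate 1 and at −0.114 without Sham replicate 3, and at most at 0.306 with 1 heart left out; the cause was not tested. With RefSeq genes in place of those of the table, the nearest protein-coding gene was at 0 kb for Gm20100 (Rab20) and 22.0 kb for 6720427I07Rik. Deviations of hearts with the same replicate number correlated at 0.153, 0.0283 and 0.0287, against −0.136 to 0.111 for hearts of unlike number. With 3 hearts in each group these values cannot decide whether the hearts were paired. With the replicate block 1125 genes were at an unadjusted p under 0.05 and 0 after adjustment. Counting error limits Gm43150 and Gm45091 most, with 27 reads in the least covered heart.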
